A study of Mus musculus with 8 samples.

Results

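The FOXP family comprises the forkhead transcription factor genes Foxp1, Foxp2, Foxp3 and Foxp4, taken here by name as 4 of 21887 protein-coding mouse genes with a unique symbol. Each locus was the RefSeq gene span on GRCm38 (the assembly that mm10 represents) with 10 kb added on either side, and the peaks that overlap it were taken from every library. This gave 87 of 75314 and 78 of 66476 peaks for WT replicates 1 and 2, and 94 of 80519 and 94 of 82683 for cKO replicates 1 and 2. Values of the 4 libraries are given in this order throughout, unless a library is named.

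Whole cortex of E15.5 mouse embryos had been used for ChIP-seq with an antibody against methylated lysine 4 of histone H3, called H3K4me in the labels, which do not give the degree of methylation. From general knowledge the catalogue number is for the monomethylated form, which lies over enhancers and beside promoters. This was not checked here, and what each covered share measures depends on it. The WT group (genotype Prdm16 flox/flox, no Cre) and the cKO group (genotype Emx1Ires-Cre; Prdm16flox/flox) had 2 libraries each, so both genotypes carry the floxed Prdm16 alleles. Emx1 drives Cre in progenitors of the dorsal telencephalon, and a whole-cortex lysate also holds cells outside that lineage, in which Prdm16 is not deleted. The 4 input libraries were not analysed here. The labels do not say whether libraries came from separate embryos or pools, so p-values measure only the spread between these libraries, which may be technical.

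FOXP proteins bind DNA through a forkhead (winged-helix) domain and act mainly as repressors. FOXP1, FOXP2 and FOXP4 pair with themselves and with each other through a leucine zipper. In the developing cortex Foxp1 is known from progenitors and projection neurons of several layers, Foxp2 from deep-layer neurons, in particular those that project to the thalamus, and Foxp4 from progenitors and young neurons. Foxp3 specifies regulatory T cells and is not a cortical gene. In people, FOXP2 mutations cause a disorder of speech, and FOXP1 mutations impair intellectual and language development.

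The sequences just before the start sites of Foxp1 and Foxp4 are shown because the mark had a different position around each of them. They are 250 bases long, 5′ to 3′ on the transcribed strand, from RefSeq on GRCm38.p6, all on the minus strand of the chromosome. The RefSeq promoter table gave 6 entries for 3 of the members: 3 starts for Foxp1, called outer, middle and inner here from the gene's far 5′ end inward, 2 for Foxp3 and 1 for Foxp4. Capitals mark exact matches, on either strand, to the forkhead cores TGTTTAC and TGTTTGC, the TATA box TATAAA and the GC box GGGCGG, whose reverse complement reads CCGCCC.
Foxp4 start, chr17:47924633-47924882: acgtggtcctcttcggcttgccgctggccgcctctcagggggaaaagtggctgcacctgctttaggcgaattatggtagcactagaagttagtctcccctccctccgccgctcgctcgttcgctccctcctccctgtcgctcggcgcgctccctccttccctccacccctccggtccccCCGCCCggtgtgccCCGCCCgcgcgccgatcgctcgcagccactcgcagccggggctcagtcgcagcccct
Foxp1 outer start, chr6:99520994-99521243: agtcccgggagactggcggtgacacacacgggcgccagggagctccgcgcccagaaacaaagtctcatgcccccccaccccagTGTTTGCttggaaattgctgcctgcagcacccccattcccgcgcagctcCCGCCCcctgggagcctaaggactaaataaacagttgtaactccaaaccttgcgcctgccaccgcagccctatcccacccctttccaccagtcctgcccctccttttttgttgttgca
Foxp1 middle start, chr6:99266516-99266765: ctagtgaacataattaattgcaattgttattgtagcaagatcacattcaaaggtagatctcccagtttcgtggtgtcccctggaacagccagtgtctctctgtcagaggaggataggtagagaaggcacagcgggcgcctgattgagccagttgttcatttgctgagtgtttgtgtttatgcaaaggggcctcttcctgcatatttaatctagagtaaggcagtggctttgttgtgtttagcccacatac
Foxp1 inner start, chr6:99028299-99028548: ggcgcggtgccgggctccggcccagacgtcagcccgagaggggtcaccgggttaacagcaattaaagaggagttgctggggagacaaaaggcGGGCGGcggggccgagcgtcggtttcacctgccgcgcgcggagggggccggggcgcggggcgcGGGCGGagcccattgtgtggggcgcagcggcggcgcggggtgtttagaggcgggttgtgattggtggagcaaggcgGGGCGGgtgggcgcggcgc
The Foxp4 promoter was 69.6% G or C with 27 CpG dinucleotides and held 2 GC boxes. The inner Foxp1 promoter was richer still, at 74.0% with 34 CpG and 3 GC boxes, and the outer one had 60.8%, 11 CpG, 1 GC box and 1 TGTTTGC. The middle Foxp1 promoter differed from these, with 45.2% G or C, 3 CpG and none of the motifs. Both Foxp3 promoters were poor in G and C (37.6% and 46.0%, with 6 and 7 CpG), and the first held a TATA box. Over 32851 promoters of the same length the median was 52.4% G or C and 6 CpG, and GGGCGG was in 32.7%, TATAAA in 12.4%, TGTTTGC in 4.30% and TGTTTAC in 3.17% of them. A match is a description of the letters and not a binding site.

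The mark divided the family sharply. Foxp4 was among the most densely marked genes, Foxp1 carried many scattered peaks along a very long gene, Foxp2 carried a few blocks around a long empty stretch, and the Foxp3 gene held no peak at all. As a share of the locus under a peak, Foxp4 had 53.7% ± 7.25 (SD, n = 4 libraries), Foxp1 21.9% ± 3.76, Foxp3 9.18% ± 4.81 and Foxp2 5.97% ± 0.566. Foxp4 exceeded Foxp1, and Foxp1 exceeded the other two, in all 4 libraries without overlap, whereas the ranges of Foxp3 and Foxp2 overlapped. Among all 21887 loci these shares ranked 150th for Foxp4, 2551st for Foxp1, 7937th for Foxp3 and 10624th for Foxp2. Among loci within 1.5 times its own length, Foxp4 ranked 20th of 4670 (median of those loci 5.29%), Foxp1 16th of 290 (4.60%), Foxp2 142nd of 335 (4.52%) and Foxp3 4694th of 10955 (7.35%). These levels are described without a test, and the read depth behind the peak lists is unknown.

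**Figure D1:**
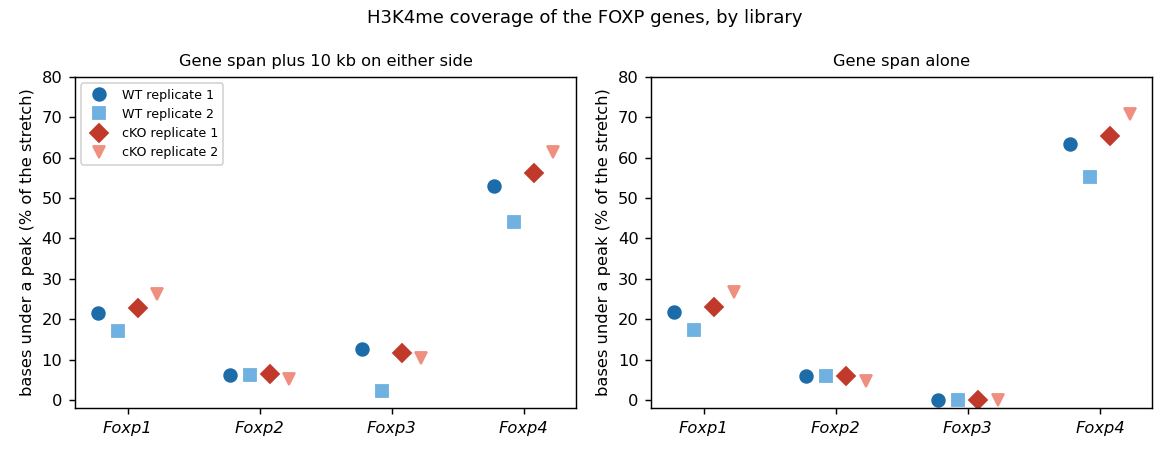
Share of bases under a peak (%) for each FOXP gene in each of the 4 libraries, over the gene with its flanks (left) and over the gene span alone (right); each point is 1 library. Foxp4 lies between 44.2% and 61.5% with its flanks, and Foxp3 drops to 0 in every library once the flanks are removed.

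Foxp4 (gene ID 74123, chr17:47867133-47924632, 57.5 kb) had 41.1 and 34.3 kb covered in the WT libraries and 43.6 and 47.6 kb in the cKO libraries. The gene span itself was 63.4%, 55.3%, 65.4% and 70.9% covered, in the same order. WT replicate 2 was lowest and cKO replicate 2 highest on both measures, as in the covered length of the whole lists (114 Mb and 166 Mb). The marked sequence was largely the same from library to library: 66.8% of all bases under a peak in any library were under one in all 4, against 44.8% over the genome.

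The longest stretch of the Foxp4 mark was a broad domain in the 5′ part of the gene, from chr17:47906400 to 47921871, where 15472 bp were under a peak in all 4 libraries. The peaks that made it were 18483, 15472, 18818 and 18900 bp wide, which placed them 85th, 122nd, 121st and 164th by width in their lists. Smaller common intervals followed toward the 3′ end, 5233 bp at chr17:47876544-47881776 and 4007 bp at chr17:47886262-47890268. The authors' fold enrichment over the 15472 bp domain was 6.59, 5.46, 6.89 and 5.88, and the highest-fold peak of the locus reached 7.78, 5.81, 7.62 and 6.83. The domain stopped short of the start. In every library the GC-rich promoter printed above was bare, with the nearest peak 647, 905, 742 and 743 bp away on the upstream side, over the lncRNA Gm46601, and none within 2 kb on the transcribed side.

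**Figure D2:**
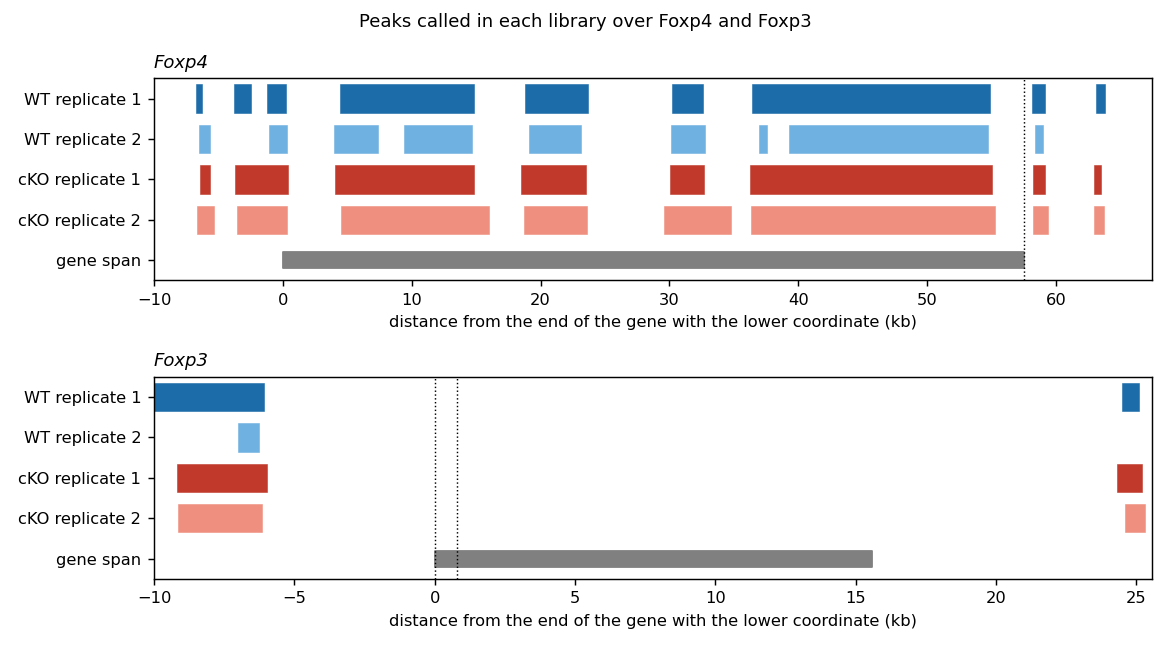
Peaks called in each library over Foxp4 (top) and Foxp3 (bottom), by distance in kb from the end of the gene with the lower coordinate; grey bars are the gene spans and dotted lines the listed starts. Foxp4 is filled by broad peaks in all 4 libraries, with the start at 57.5 kb bare, while every peak near Foxp3 lies outside the gene span.

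Foxp1 (gene ID 108655, chr6:98925342-99522746, 597 kb) had 133 and 106 kb covered in the WT libraries and 140 and 162 kb in the cKO libraries, in 59, 52, 62 and 68 peaks. WT replicate 2 was lowest and cKO replicate 2 highest, and both cKO libraries lay above both WT libraries before any scaling. The same held, before scaling, at 8941 of the 14941 loci that were tested for a difference between genotypes. The Foxp1 mark was made of many intervals instead of 1 broad domain. There were 49 intervals under a peak in all 4 libraries, with a median length of 1163 bp, and 17 of them were 2000 bp or longer. Over the genome the 58870 such intervals had a median of 1011 bp, and 13087 were 2000 bp or longer. The widest Foxp1 peaks, of 8694, 7545, 8412 and 9477 bp, placed 823rd, 1031st, 1192nd and 1213th by width in their lists. The 49 common intervals made up 47.0% of all Foxp1 bases marked in any library. A further 25.3 kb were marked in cKO replicate 2 alone, compared with 8.51 kb in cKO replicate 1 alone, 6.42 kb in WT replicate 1 alone and 2.05 kb in WT replicate 2 alone.

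The mark ran through the whole Foxp1 gene but was not even. Between the inner start and the 3′ end, 27.5% ± 4.82 of the bases were covered, between the outer and middle starts 23.8% ± 4.56, and between the middle and inner starts 18.3% ± 2.96 (SD, n = 4 libraries each). The 10 kb past the 3′ end held a peak in cKO replicate 2 only. With the gene cut into 10 equal parts, the 5′-most was the fullest (32.7% ± 5.47) and the fourth from the 3′ end the emptiest (12.7% ± 2.03). The longest common interval, 7264 bp at chr6:99200347-99207610, lay over the start of the lncRNA Gm52870 inside the gene, with fold enrichment of 6.53, 4.63, 5.30 and 5.89. The next, 6587 bp at chr6:99263664-99270250, lay over the middle start of Foxp1 itself (5.89, 4.27, 4.90 and 5.81). The third, 5120 bp at chr6:99374182-99379301, lay far from any listed start and had the highest fold of the 3 (8.20, 5.91, 7.08 and 6.92). It contributed the highest-fold peak of the locus in WT replicate 1 and cKO replicate 2.

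Each of the 3 Foxp1 starts carried the mark differently. The middle start, whose promoter is poor in G and C, was buried in the mark in all 4 libraries, with every base for 2 kb upstream covered. The outer start was bare, with nothing within 2 kb upstream and peaks beginning 927, 928, 753 and 742 bp away on the transcribed side, where 53.7%, 53.6%, 62.4% and 62.9% of 2 kb were covered. The inner start sat at a peak's edge: it was under a peak in WT replicate 1 and cKO replicate 1, and 355 and 299 bp from one in WT replicate 2 and cKO replicate 2, so this difference followed neither genotype. Upstream of it lay the longest stretch of the locus without a peak in any library, 29.0 kb at chr6:99029247-99058229. For comparison, of 21263 start sites of coding genes, 21.1% were under a peak in all 4 libraries and 51.6% in none. A bare start with more than 25% of the 4 kb around it covered in every library, as at the outer Foxp1 start, occurred at 4.76%. The lowest value at the outer Foxp1 start, 26.82% in WT replicate 2, was close to this cut, which was not varied. The bare Foxp4 start did not meet the cut, with 15.8% in WT replicate 2.

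**Figure D3:**
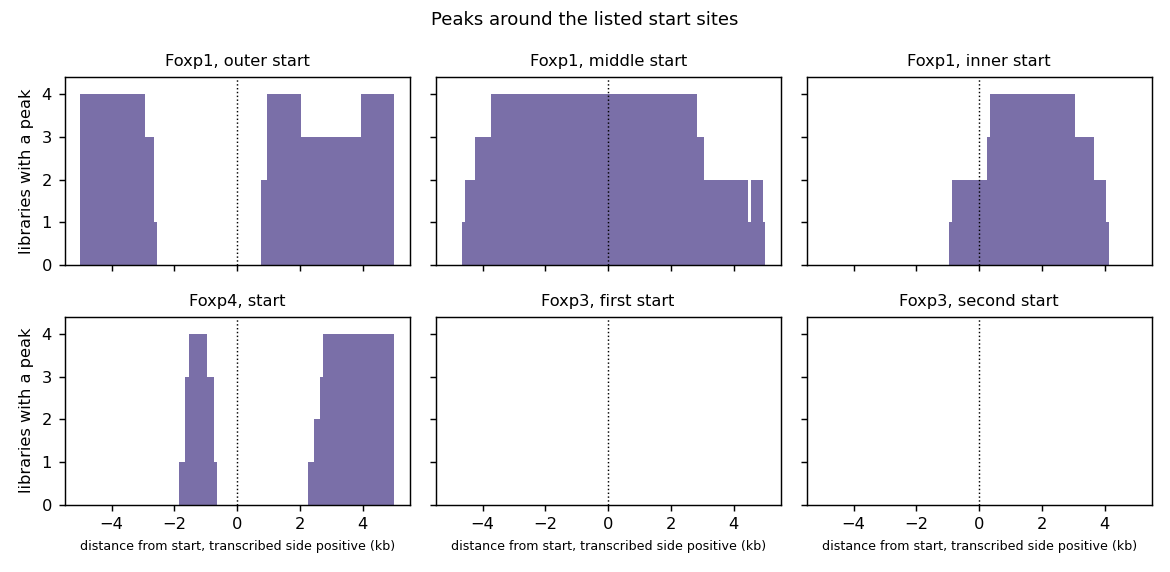
Number of libraries (0 to 4) with a peak at each position within 5 kb of the listed starts of Foxp1, Foxp4 and Foxp3; the x axis is distance from the start in kb, positive on the transcribed side. The middle Foxp1 start lies inside the mark of all 4 libraries, the outer Foxp1 and Foxp4 starts lie in gaps, and neither Foxp3 start has any peak nearby.

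Foxp2 (gene ID 114142, chr6:14901349-15441977, 541 kb) is nearly as long as Foxp1 but had only 34.9 kb covered in both WT libraries and 35.4 and 28.7 kb in the cKO libraries, in 17, 16, 22 and 16 peaks. cKO replicate 2 was the lowest here although its list covered the most sequence overall. No peak in any library fell in the 172 kb of chr6:14979741-15151572, in the part of the gene with the lower coordinates. Over the rest of the locus 12 intervals were common to all 4 libraries, and these made up 38.7% of the bases marked in any library. Of 10 equal parts of the gene, the one with the highest coordinates was 20.8% ± 3.38 covered and the sixth from the lower end 14.7% ± 3.17 (SD, n = 4 libraries).

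There were 3 main Foxp2 blocks. The longest common interval was 4830 bp at chr6:15407237-15412066, with fold enrichment of 4.28, 4.83, 5.06 and 4.61. The next was 4655 bp at chr6:15182685-15187339, the first marked interval common to all libraries after the empty stretch, where fold enrichment was 4.50, 4.31, 4.57 and 5.41. Its peak was 7767 and 7645 bp wide in the WT libraries and 6950 and 4727 bp in the cKO libraries, so the peak was narrowest in the library where its fold was highest. The third, 2729 bp at chr6:14897865-14900593, lay just outside the gene's lower-coordinate end, in sequence with no annotated gene. The peaks over it had fold enrichment of 5.44, 4.38, 5.17 and 5.13. In WT replicate 2 and cKO replicate 2 these peaks were 6193 and 6233 bp wide and ran across the gene's end. A further common interval of 1344 bp lay just inside the gene. The common intervals of Foxp2 had a median length of 942 bp, against 1163 bp in Foxp1 and 2395 bp in Foxp4, and 3 of them were 2000 bp or longer, against 17 in Foxp1 and 5 in the much shorter Foxp4.

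**Figure D4:**
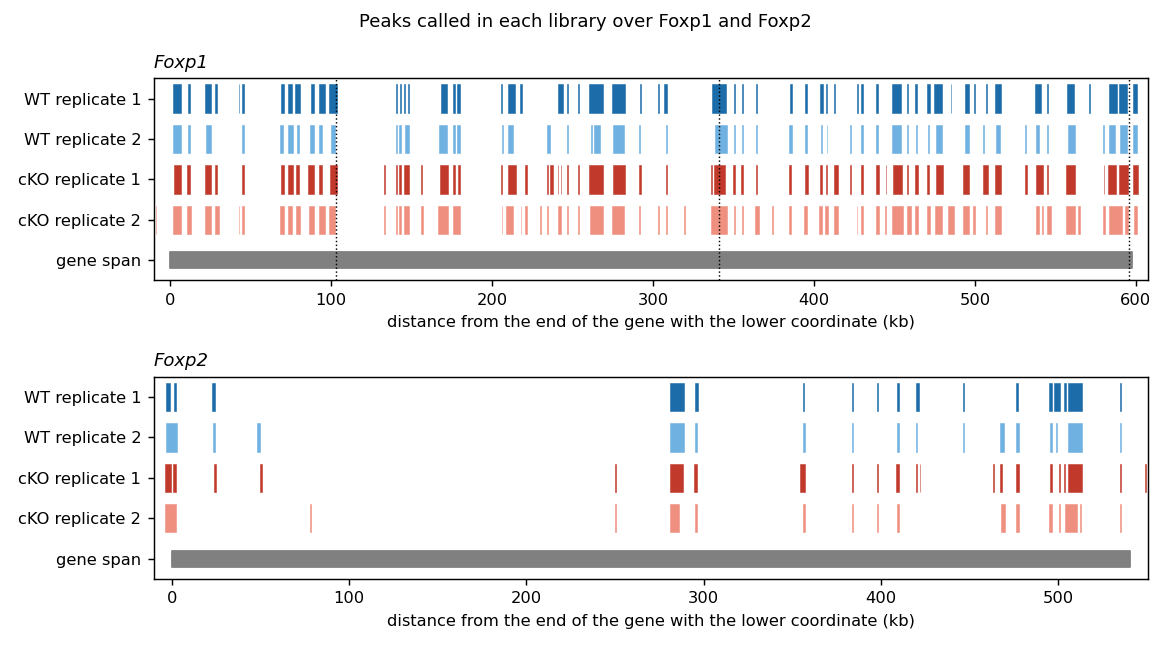
Peaks called in each library over Foxp1 (top) and Foxp2 (bottom), by distance in kb from the end of the gene with the lower coordinate; grey bars are the gene spans, dotted lines the listed Foxp1 starts. Peaks run along all of Foxp1, whereas in Foxp2 they gather in a few blocks on both sides of an empty stretch of 172 kb.

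Foxp3 (gene ID 20371, chrX:7579676-7595243, 15.6 kb) held no covered base in the gene span in any library. Both of its starts were far from the mark, with the nearest peak 5986 to 6255 bp from the first and 6793 to 7062 bp from the second. The coverage counted for the locus, 4.51, 0.747, 4.10 and 3.69 kb, all lay in the flanks, in or beside the neighbouring genes Ppp1r3f and Ccdc22. The only interval common to the 4 libraries was 747 bp at chrX:7572675-7573421 within Ppp1r3f, which encodes a regulatory subunit of protein phosphatase 1. WT replicate 2 stood apart with 1 peak of 747 bp, and the other 3 libraries had 2 peaks each. Genes of the regulatory T cell list had a median share of 3.60% ± 0.593 over 9 genes, against a median of 5.68% over all loci, and Il2ra (a subunit of the interleukin-2 receptor) and Il2 were without a peak in all 4 libraries. The highest of the list were Cd4 at 24.1% ± 3.52, Tnfrsf18 at 11.2% ± 0.548 and Lck at 8.85% ± 2.74, and Cd3e had 1.49% ± 1.07.

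Beside the members, the tissue label was read from marker genes. The 12 cortical marker genes had a median covered share of 60.8% ± 3.48 and the 10 non-neural ones 4.20% ± 0.782 (SD of the median over 4 libraries). Sox2, a transcription factor of neural progenitors, reached 91.5% ± 2.73 and Neurod2, a factor of projection neurons, 87.2% ± 8.92, while the haemoglobin gene Hbb-bs and the albumin gene Alb held no peak. Emx2, a homeobox gene of the dorsal telencephalon, had 77.2% ± 4.90. The lists overlapped: the lowest cortical markers were Tle4 at 18.7% ± 2.66, Cux2 at 33.9% ± 2.76 and Neurod6 at 44.4% ± 8.99, and the highest non-neural ones were the collagen gene Col1a1 at 21.6% ± 4.12 and the muscle genes Acta1 at 12.6% ± 0.336 and Myod1 at 12.2% ± 3.97. Foxp4, at 53.7%, lay nearer to the cortical median, and Foxp3 and Foxp2, at 9.18% and 5.97%, nearer to the non-neural one. Foxp1, at 21.9%, was also nearer to the non-neural median, but stood level with the highest non-neural gene, Col1a1, and above the cortical marker Tle4. The loci differ in length (617 kb for Foxp1, 22.5 kb for Sox2), and these shares were not adjusted for it.

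Within the forkhead superfamily, Foxp4 ranked 3rd of 44 by covered share, Foxp1 10th, Foxp3 30th and Foxp2 35th. The rank of Foxp3 rests on its flanks alone. The forkhead loci run from 21.3 kb (Foxs1), most of it flank, to 617 kb (Foxp1), and the ranks were not adjusted for length. Only Foxo6 (78.2% ± 2.79), a forkhead gene of the developing cortex, and Foxb2 (60.8% ± 3.37) were above Foxp4, and Foxn3 followed it (36.9% ± 3.91). The 40 other forkhead genes had a median of 11.8% ± 3.33, and the lowest were Foxr1 with no peak, Foxr2 (0.429% ± 0.858) and Foxi1 (1.18% ± 1.54). The 15 genes for proteins that are known to bind or work with FOXP factors had a median of 16.7% ± 3.71. The highest of them were Nr2f1 (71.1% ± 5.80), an orphan nuclear receptor that patterns cortical areas, and Tbr1 (64.0% ± 6.49), a factor of deep-layer neurons whose protein binds FOXP2. The co-repressor gene Ctbp2 had 39.1% ± 4.98, whereas the deacetylase gene Hdac2 had 2.85% ± 0.200, Zmym2 4.16% ± 0.366 and Gatad2b 6.86% ± 0.549. Of 9 reported FOXP target genes, with a median of 13.9% ± 2.59, the Notch ligand gene Jag1 (31.5% ± 8.90) and the cadherin gene Cdh2 (30.9% ± 4.62) were highest, followed by Plaur (17.7% ± 2.06). Cntnap2, a large gene repressed by FOXP2 in human cells, had 1.86% ± 0.211, the receptor tyrosine kinase gene Met 3.76% ± 0.431, and Srpx2 had no peak.

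The comparison of genotypes asks where the mark differs when Prdm16, a zinc-finger regulator of radial glia, is deleted by Emx1-Cre. No FOXP locus passed the test. The cKO lists covered more of the genome than the WT lists (157 ± 12.7 Mb and 122 ± 11.6 Mb, SD, n = 2 each), so covered bases were put on a log2(bases + 500) scale and the median of the 14941 tested loci was subtracted in every library. Differences on this scale understate those of thinly covered loci. All 4 members passed the minimum of 1000 covered bases on average. For Foxp2 the cKO libraries lay lower by 0.51 ± 0.16 (SE) on the log2 scale (limma adjusted p = 0.466, with an unadjusted p under 0.05). For Foxp4 the difference, cKO minus WT, was -0.11 ± 0.09 (adjusted p = 0.670), for Foxp1 -0.04 ± 0.07 (adjusted p = 0.845) and for Foxp3, from its flanks alone, 0.43 ± 0.51 (adjusted p = 0.769), all by limma with Benjamini-Hochberg adjustment.

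Before centring, covered length was higher in cKO for Foxp4 (45.6 ± 2.86 kb in cKO, 37.7 ± 4.82 kb in WT, a ratio of 1.21) and for Foxp1 (151 ± 15.6 kb and 119 ± 19.1 kb, 1.27). Foxp2 went the other way, with 32.1 ± 4.70 kb in cKO and 34.9 ± 0.0636 kb in WT, a ratio of 0.919. For Foxp2 the genotypes overlapped before centring, because cKO replicate 1 was the highest of the 4 libraries, and did not overlap after it. After centring the groups also did not overlap for Foxp4, with cKO lower, while for Foxp1 and Foxp3 they overlapped. Before centring the Foxp4 groups did not overlap in the opposite direction, with both cKO libraries above both WT libraries (41.06, 34.25, 43.59 and 47.63 kb). The lower position of Foxp4 in cKO thus comes from centring. Of the 14941 loci, 27.2% were lower in cKO without overlap and 17.3% higher, and 4.44% were lower at an unadjusted p under 0.05 and 5.56% higher, and the 2 of 4 members lower without overlap and the 1 of 4 lower at that p are to be read against these shares. No locus passed the adjusted threshold in either direction (limma, 0.0% called, with 830 loci higher and 663 lower where the unadjusted p was under 0.05). Without WT replicate 1, 124 loci passed, none of them a member, and the Foxp1 difference turned to 0.02. Without cKO replicate 2 the Foxp2 difference was -0.28, and without centring it was -0.13, while the Foxp4 and Foxp1 differences without centring were 0.28 and 0.34 beside a median of 0.35 over all loci. A negative value without centring, as at Foxp2, was found at 7.76% of the 14941 loci.

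**Figure D5:**
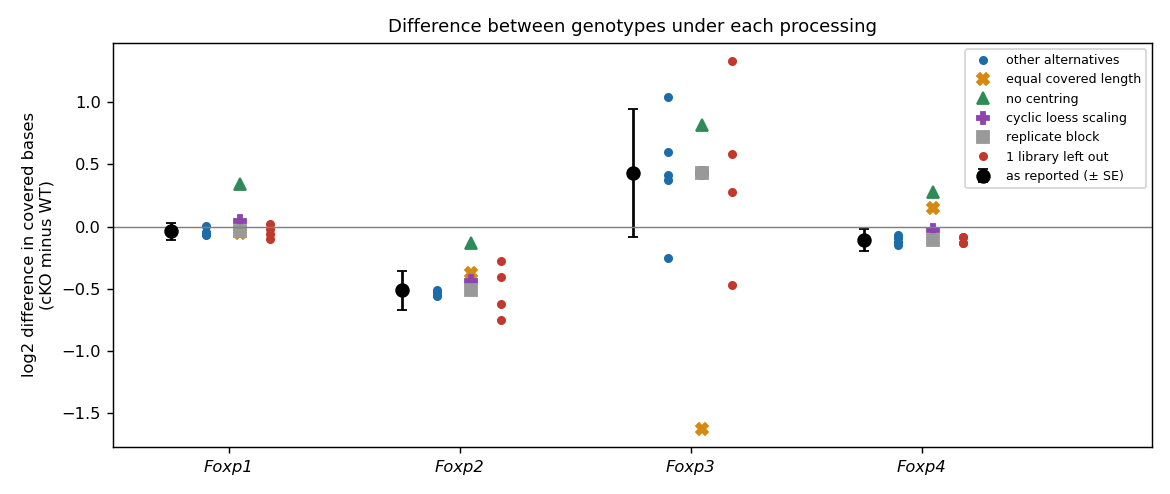
Difference in covered bases between genotypes (log2, cKO minus WT) for each FOXP locus as reported, with its SE as a bar, and under each alternative processing; points are single alternatives. Foxp2 lies below 0 under all of them, between -0.75 and -0.13, whereas Foxp1, Foxp3 and Foxp4 have values on both sides of 0.

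Shifts local to part of a gene were sought in windows of 10 kb. In Foxp2, 10 of 56 windows had enough coverage to be tested. On the centred scale 9 of them had a negative difference, against 58.5% of the 45095 windows of the genome, and without centring 5 did, against 18.8%. The lowest p values were at chr6:15390001-15400000, with 2237, 1446, 1303 and 1415 covered bases (-0.60 ± 0.21, limma adjusted p = 0.541), and at chr6:15180001-15190000, with 7316, 7348, 6950 and 4727 (-0.62 ± 0.24, adjusted p = 0.556). In the latter cKO replicate 2 was well under the other 3 libraries, and in the former WT replicate 1 was well above the rest. The only window with a positive value, at chr6:15250001-15260000, rested on cKO replicate 1 (782, 982, 2655 and 810 bases; 0.27 ± 0.51).

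In Foxp1, 41 of 61 windows were tested, 19 positive and 22 negative, and without centring 4 were negative. The higher values in cKO were at chr6:99410001-99420000 (1269, 928, 2077 and 3988 bases; 0.81 ± 0.27, adjusted p = 0.541) and chr6:99330001-99340000 (2363, 747, 3325 and 4357; 0.90 ± 0.37, adjusted p = 0.567), with both cKO libraries above both WT libraries and a wide spread inside each genotype. The lower ones were at chr6:99060001-99070000 (1823, 1674, 1316 and 1462; -0.54 ± 0.18) and over the Gm52870 start at chr6:99200001-99210000 (7778, 7387, 7416 and 7610; -0.30 ± 0.11). In the last of these the uncentred bases of the genotypes overlapped. In Foxp4 all 7 windows were tested. The window across the 3′ end, chr17:47860001-47870000, had 3201, 2188, 4884 and 5201 bases (0.52 ± 0.18, adjusted p = 0.541). The window inside the 5′ domain at chr17:47910001-47920000 was fully covered, 10000 bases in every library, so its value of -0.29 comes from centring alone. For Foxp3 the single window tested lay in the 5′ flank (3581, 747, 3199 and 2969; 0.38 ± 0.52). None of the 45095 windows of the genome passed the adjusted threshold (limma, 0.0% called in either direction). At an unadjusted p under 0.05 lay 2302 windows that were higher (5.1%) and 1739 that were lower (3.86%), against 1 higher and 2 lower of 41 in Foxp1, 0 and 2 of 10 in Foxp2 and 1 of each of 7 in Foxp4. Without overlap between genotypes, 14.6% of windows were higher and 31.7% lower, against 4 and 10 in Foxp1, 0 and 4 in Foxp2 and 1 and 4 in Foxp4. These counts are on the centred scale. In covered bases as they stand, 44.1% of windows were higher and 4.31% lower without overlap, against 17 and 1 in Foxp1, 1 and 3 in Foxp2 and 5 and 0 in Foxp4. All 4 Foxp4 windows counted as lower, with the fully covered one among them, thus had cKO bases equal to or above those of WT.

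Regions marked in both libraries of 1 genotype, with no touching peak in either library of the other, were counted in each locus. In cKO, 6 of the 60 common intervals of Foxp1 and 1 of the 17 of Foxp2 (5.88%) were of this kind, against 7.73% of 72333 over the genome. Over the 4 members this was 7 of 87 (8.05%), near the genome share, and their median length of 409 bp stood beside 452 bp over the genome. The longest, all in Foxp1, were 907 bp at chr6:99145890-99146796, 624 bp at chr6:99058447-99059070 and 528 bp at chr6:99081314-99081841. Their fold enrichment was modest, between 2.90 and 3.95. In WT, 2 of the 15 common intervals of Foxp2 (13.3%) were WT-only, against 0.949% of 61195 over the genome. Over the 4 members this was 2 of 72 (2.78%). They were 687 bp at chr6:15399925-15400611 and 269 bp at chr6:15347867-15348135, with fold enrichment of at least 3.61. The first of these overlaps the end of the Foxp2 window with the lowest p, and peaks of both cKO libraries came within 1300 bp of it. No WT-only interval was found in Foxp1 (0 of 47), and none of either kind in Foxp4 or Foxp3. With intervals of at least 500 bp, 3 cKO-only regions and 1 WT-only region were left, and with every list cut to the same covered length there were 0 and 10.

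How far 2 libraries shared marked bases was given as their Jaccard index, shared bases over bases marked in either. For Foxp4 it was 0.775 between the WT libraries, 0.877 between the cKO libraries and up to 0.899 across genotypes. For Foxp1 it was 0.658, 0.673 and up to 0.704, again highest between WT replicate 1 and cKO replicate 1. For Foxp2 the WT pair shared most (0.688), the cKO pair 0.536, and pairs across genotypes between 0.517 and 0.636. For Foxp4 and Foxp1 both the most alike pair and the least alike, WT replicate 2 with cKO replicate 2 (0.700 and 0.580), joined a WT and a cKO library. In the flanks of Foxp3 the cKO pair shared most (0.847) and the WT pair least (0.166).

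The lists around the family showed the same absence of calls: 0 loci passed the adjusted threshold in any of them. Of 35 other forkhead genes tested, 9 were positive and 26 negative (median -0.07), beside a median of -0.04 and 55.0% negative over all loci. Foxo6, at -0.33 ± 0.10, was the 1 at an unadjusted p under 0.05 (limma adjusted p = 0.468). The largest forkhead differences were at Foxa2 (1.01 ± 0.66, from 2.28, 0, 2.65 and 2.52 kb, so set by WT replicate 2), Foxk2 (0.51 ± 0.29) and Foxd2 (0.48 ± 0.25). Of the 15 partner genes, 6 were positive and 9 negative (median -0.15). The zinc-finger factor gene Yy1 (3.69, 2.28, 7.91 and 6.64 kb; 0.80 ± 0.24, adjusted p = 0.454) and Nr2f2, which encodes the nuclear receptor COUP-TFII (7.72, 4.21, 10.2 and 17.8 kb; 0.78 ± 0.26, adjusted p = 0.474), had both cKO libraries above both WT libraries, and Hdac1 followed (0.60 ± 0.33). On the centred scale 3 of the 15 partner genes were higher in cKO without overlap and 7 lower, against 17.3% and 27.2% of all tested loci. In covered bases as they stand, 8941 of 14941 loci were higher without overlap. Of 8 reported targets tested 2 were positive and 6 negative (median -0.03), with Met (-0.30 ± 0.24), Cntnap2 (-0.21 ± 0.13) and Plaur (-0.18 ± 0.17) farthest from 0. The T cell genes farthest from 0 were Cd3g (-0.38 ± 0.32), Tnfrsf18 (-0.28 ± 0.26) and Lck (0.26 ± 0.23), and the non-neural ones Ptprc (-0.56 ± 0.28), Acta1 (-0.37 ± 0.25) and Myod1 (0.13 ± 0.28). All 12 cortical marker genes were negative (median -0.27). At an unadjusted limma p under 0.05, 6 were lower, against 4.44% of all tested loci. Sox2 (-0.34 ± 0.12), Fezf2 (-0.34 ± 0.12) and Pax6 (-0.32 ± 0.14) were farthest from 0. Without centring these 3 stood at 0.04, 0.05 and 0.06, so their negative values come from centring. These directions belong to the centred scale. Without centring, all 35 forkhead genes, 15 partner genes, 8 targets and 12 cortical markers were positive, as were the 5 tested T cell genes, and with the lists cut to equal covered length 9 of the 12 cortical markers were. Foxp2 (-0.13) and, among the 6 tested non-neural genes, Ptprc (-0.17), which encodes the leukocyte antigen CD45, were negative without centring.

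By their pattern over the 4 libraries, as the distance between centred log2 values with each gene's own mean removed, genes of the lists close to Foxp1 were Foxp4 (distance 0.10) and Disc1 (0.10), where the median over 84 genes was 0.35. Close to Foxp4 were Foxk1 (0.05) and Ctbp2 (0.09), with a median of 0.30. Foxp2 was nearest to Hdac2 (0.18), Acta1 (0.27) and Sox2 (0.27), with a median of 0.62, and Foxp3 to Hdac1 (0.54), Foxa2 (0.67) and Foxs1 (0.99), with a median of 1.47. The libraries differ in covered length, which these distances share, so they are a description only.

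A lower covered share in whole cortex can come from fewer cells that carry the mark or from less of it per cell. It can also come from the read depth or peak calling of a list, and these cannot be told apart here. Broad peaks also do not give the height of the mark inside them.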

How the data were processed

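ChIP-seq peak lists of 4 libraries (2 WT, 2 cKO) were analysed, and 4 inputs were not. The authors deposited 1 broad peak list per library, so peaks were called per library. The submitters' processing notes name mm10, MACS2 2.1.1, Bowtie2 2.2.8, cutadapt and FastQC. The calling options and the filters on reads, and whether the inputs served as control, are not stated there. For each peak the deposited lists give coordinates, a score, a fold enrichment (a ratio) and the −log10 of its p-value and q-value. These are the authors' own and served to describe, rank or filter peaks within a list. The deposited score was 10 times the −log10 q-value without its decimals, apart from 1 to 6 peaks a list. The lists hold no read counts, so depth is unknown and no counting interval is given. Deeper sequencing or better precipitation gives more and wider peaks, and covered bases inherit this.

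Peaks on the main chromosomes were merged per library (Python 3.11.15 with pandas 2.3.3 and numpy 2.4.6). Genes and promoters came from RefSeq tables on GRCm38.p6. Covered bases per locus (gene span plus 10 kb on either side) or 10 kb window became log2(bases + 500). Loci or windows with a mean under 1000 bases were left out. Each library was centred on its median. Genotypes were compared with limma 3.58.1 (R 4.3.3; eBayes with a trend, 2 against 2, no block), Benjamini-Hochberg adjustment over all 14941 loci or 45095 windows, threshold 0.05. On simulated data the locus fit recovered 4, 22, 46 and 46 of 50 loci changed by 0.5, 1, 2 and 4 on the log2 scale, with 4 false calls among the unchanged loci. The window fit recovered 0, 8, 30 and 28 of 50, with 7 false calls among the unchanged windows. All sizes of change were planted in the same run with independent normal noise. The noise had the variance that limma itself had assigned to each locus or window, so recovery on the real lists may be lower. The large ones ease the adjusted threshold for the small ones, so recovery of small changes alone was not measured. Regions of a single genotype were intervals of 200 bp or more shared by both its libraries and touched by no peak of the other.

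The members and the 6 gene lists were chosen with earlier results of these data known. Named were the members, the genes and the lncRNAs overlapping their loci where a result touched them, and from each list the 3 genes with the largest covered share, the 3 with the smallest and the 3 with the largest difference. Foxo6 was also named for its p, after its value was seen. Some items that the rule also names are not reported here. Regions named were the longest common intervals, the highest-fold peaks, start sites, genotype-specific regions and the windows of lowest p. Alternatives were stricter peaks, lists cut to equal number or equal length, other scalings, flanks, filters, pseudocounts and window sizes, the replicate block and leaving out each library.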

Additional observations from a re-analysis of the deposited data

How the results depend on the processing

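Under 14 alternatives (13 for Foxp3, whose gene span alone has no covered base and could not be fitted) no FOXP locus passed the adjusted threshold. Foxp2 kept its direction in all 14, between -0.75 and -0.13 on the log2 scale (adjusted p from 0.109 to 0.927, limma). Leaving out 1 library gave -0.75 to -0.28, and since the groups did not overlap after centring, that cannot turn the sign. Nor can the replicate block, which leaves the difference as it is. Foxp1 reversed without centring (0.34), with cyclic loess scaling (0.044) and on the gene span alone (0.0037), and ranged from -0.0985 to 0.0203 (without WT replicate 1) with 1 library left out. Foxp3 reversed with lists cut to an equal number of peaks (-0.26) or an equal covered length (-1.62), and ranged from -0.47 (without WT replicate 2) to 1.33 with 1 library left out. Foxp4 reversed at equal covered length (0.15) and without centring (0.28), and ranged from -0.13 to -0.08 with 1 library left out. Centring lowers every locus by 0.38. Beyond this construction the cause was not tested. With 1 library left out, the lone one is assumed to vary like the others. The number of loci called was 0 under every alternative but 1: leaving out 1 library gave 0 to 124, the highest without WT replicate 1 (119 higher, 5 lower). No window of a member was called under any of 13 alternatives.

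The following named windows changed sign or, for Foxp4 at 47910001, fell to 0. The Foxp2 window at 15250001 was -0.43 without cKO replicate 1 (up to 0.98 without cKO replicate 2). The Foxp3 window at 7570001 was -1.02 at equal number, -2.27 at equal length and -0.40 without WT replicate 2. It reached 1.16 without WT replicate 1. The Foxp4 window at 47860001 was -1.154 at equal length. That at 47900001 was -0.017 without WT replicate 2 and up to 0.38 without WT replicate 1. That at 47910001 was 0 without centring. That at 47870001 was 0.071 at equal length, 0.16 without centring and 0.043 with cyclic loess. The cKO-only regions in the members' loci numbered 7, but 2 at an equal number of peaks, 0 at equal covered length and 3 at a minimum of 500 bp. The WT-only regions numbered 2, but 4, 10 and 1 under the same alternatives, so the direction of this contrast depends on how the lists are cut.

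Each replicate number holds a WT and a cKO library, so a block on it cannot change the differences, only their errors and p-values. With the block the differences stayed at -0.04 for Foxp1, -0.51 for Foxp2 (limma adjusted p = 0.561), 0.43 for Foxp3 and -0.11 for Foxp4. In this fit 0 loci were called. The labels do not say that the numbers pair libraries, and same-numbered libraries did not deviate together (correlation -0.0962 over 14941 loci).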
